A study of Homo sapiens with 4 samples.

Results

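StringTie assembles transcripts from aligned reads and can place an entry where the annotation has no transcript. Such entries were the subject here: assembled entries that carried the name of a single gene but held no annotated (Ensembl) transcript, with a count of at least 50 in 2 or more of the 4 libraries. This rule found 2080 of the 64873 entries of the table, and 5665 entries met it when no count was required. The entries were chosen by their counts, so levels are given as a description. The contrast between the groups was tested, with the limit that 47 entries reached the minimum only through both DMSO libraries and 59 only through both SF1-8 libraries.

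The cells were K562, an established erythroleukemia line that carries the BCR-ABL1 fusion, engineered to overexpress U2AF1_S34F in both groups. U2AF1 recognises the AG dinucleotide at the 3′ splice site, and S34F is a hotspot mutation of myeloid neoplasms. The 4 libraries were made from rRNA-depleted total RNA, 2 after DMSO and 2 after SF1-8 (30 uM, 48 h), a fragment-derived inhibitor of the UHM domain of U2AF1. The contrast asked how SF1-8 changed gene and transcript levels in these cells. The sources used here do not say whether the 2 libraries of a group came from separate cultures, so the p-values measure only the spread between these libraries, which may be technical.

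Total counts were 45522905 in DMSO 1 and between 64305922 and 67554610 in the other 3 libraries, so DMSO 1 was the shallowest. The 10 erythroleukemia markers, among them GATA1, KLF1 and TFRC, were above 1 FPKM (the deposited level per length and depth) in every library, with HBG1, HBG2 and HBE1 read from 1 shared entry. The summed level of 6 fibroblast markers was 9.79 and 4.64 FPKM in the DMSO libraries and 2.27 and 0.558 FPKM in the SF1-8 libraries, with DCN, LUM and PDGFRB under 1 FPKM throughout. The T cell markers CD2 and CD3E, the B cell markers CD79A and MS4A1 and the monocyte markers CD14 and CSF1R were under 1 FPKM in every library, whereas CD3D (T cell) stood at 3.82 to 5.14 FPKM and LYZ (monocyte) at 4.08 to 5.80 FPKM. The annotated U2AF1 entry had 11.4 and 11.5 FPKM with DMSO and 11.9 and 12.02 FPKM with SF1-8. The overexpressed copy cannot be separated from the endogenous gene in this value.

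Total RNA holds unspliced precursors beside mature messages, so introns, stretches beyond the annotated 3′ end and transcripts from the opposite strand all give reads. An assembled entry can therefore be intronic RNA, read-through past the last exon, an antisense transcript, an unannotated exon or a misplaced group of reads from a near-identical gene copy. The entries were described by where they lay, on which strand, and by their level.

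Of the 2080 entries, 64 held a whole RefSeq promoter window (250 bases before to 50 after a gene's start) and 20 held that of their own gene. Promoters inside 4 entries with large differences between the groups are printed here from RefSeq (GRCh38.p14), so that the start of the known gene can be seen inside the unannotated entry. The HSPA1B window (chr6:31827488-31827787, plus strand) lay in 2 entries on the minus strand. Its capitals mark the core of the heat shock element (GAANNTTC, its own reverse complement), which 6.77% of 35116 such windows hold. The NUDT4B window (chr1:148748524-148748823, plus strand) has GC boxes (GGGCGG on either strand, 45.0% of windows) in capitals, and 1 of 3 CLEC18B windows that lay in the entries named AC009053 and NPIPB15 (chr16:74421429-74421728, minus strand) has the CCAAT box (CCAAT on either strand, 34.6% of windows) in capitals. The other 2 CLEC18B windows hold no CCAAT and are not printed. A match describes letters and not binding.
HSPA1B: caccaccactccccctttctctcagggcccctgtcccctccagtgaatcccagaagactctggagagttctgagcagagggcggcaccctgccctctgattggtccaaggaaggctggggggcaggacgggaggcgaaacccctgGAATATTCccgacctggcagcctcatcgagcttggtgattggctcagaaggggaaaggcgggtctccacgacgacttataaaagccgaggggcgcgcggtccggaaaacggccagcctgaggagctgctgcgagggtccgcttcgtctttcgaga
NUDT4B: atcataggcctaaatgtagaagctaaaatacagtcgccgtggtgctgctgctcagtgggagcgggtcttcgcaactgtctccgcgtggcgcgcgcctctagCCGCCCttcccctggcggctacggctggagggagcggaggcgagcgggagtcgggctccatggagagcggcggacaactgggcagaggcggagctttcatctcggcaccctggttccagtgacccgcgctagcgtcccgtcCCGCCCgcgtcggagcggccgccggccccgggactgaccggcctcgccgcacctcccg
CLEC18B: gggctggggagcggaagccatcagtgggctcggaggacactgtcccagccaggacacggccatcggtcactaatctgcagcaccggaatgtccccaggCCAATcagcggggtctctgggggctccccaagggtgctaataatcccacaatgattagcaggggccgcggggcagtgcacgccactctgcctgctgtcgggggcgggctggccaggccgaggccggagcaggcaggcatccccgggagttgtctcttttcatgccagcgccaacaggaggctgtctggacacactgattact

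Most of the entries were intronic. By GENCODE release 29, 1422 of the 2080 lay wholly within introns, 464 lay outside any annotated gene, 183 covered part of an exon and 11 were wholly exonic. The assembler gave no strand to 1144 entries, placed 609 on the strand opposite to the annotated entry of the same gene (the one that held the entry, or else the nearest) and 327 on the same strand. Every one of the 1144 entries without strand had a length, read from the ratio of count to FPKM, of at least 95% of its extent. The constant behind this length was set on entries without strand, with their extent taken as their length, so this says only that count over FPKM scaled with the extent in all of them. Of 887 entries with a strand and 1 assembled transcript, 287 had a length under 95% of the extent, on the same scale. The extents ran from 211 to 259625 bases with a median of 1395.

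**Figure D1:**
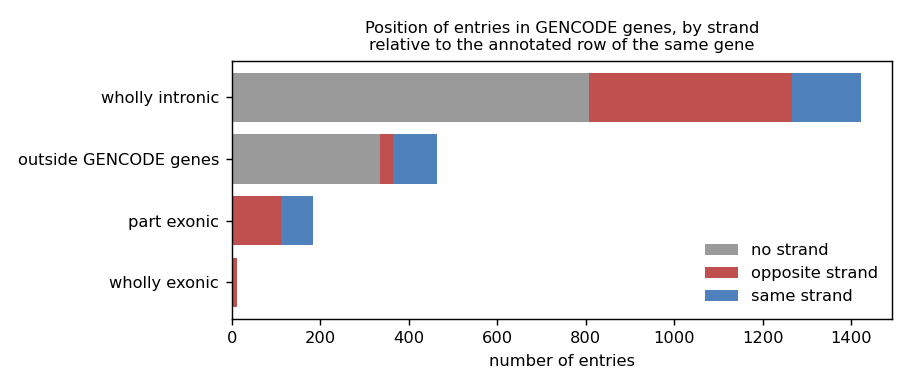
Number of entries (horizontal axis) by their position in GENCODE genes, with colours for the strand relative to the annotated entry of the same gene. Wholly intronic entries were the most frequent (1422), and 808 of them had no strand.

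Entries lying inside another entry of the same gene numbered 1564, and 1562 of these lay inside an annotated one. Of the entries inside, 561 lay in an entry on the opposite strand, 190 in one on the same strand and 839 had no strand of their own, with some entries lying in more than 1 other. A further 113 overlapped an annotated entry of their gene without lying inside one. The entries that overlapped none were mostly just beyond the 3′ end: 380 were downstream, at a median gap of 704.5 bases, and 25 were upstream, at a median gap of 12252 bases. Of the downstream entries 365 lay within 2000 bases, 283 had no strand, 93 were on the strand of the gene and 253 belonged to protein-coding genes. How the authors attached gene names to assembled entries is not given in the sources used here, and its part in this distribution was not tested.

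**Figure D2:**
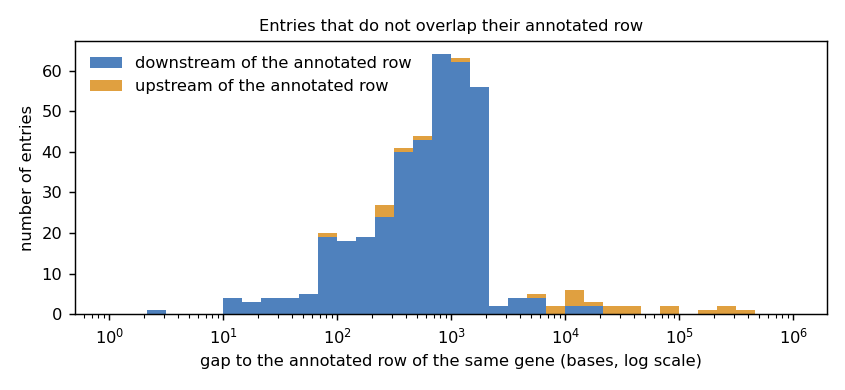
Gap in bases (log scale) between an entry and the annotated entry of the same gene, for entries that overlapped none, with the number of entries on the vertical axis. Of 380 downstream entries (blue) 365 lay within 2000 bases, against 7 of 25 upstream entries (orange).

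The entries named 1604 genes. By the GENCODE type of that gene, 1390 entries belonged to protein-coding genes and 110 names had no match in the release. The levels were low, with a median FPKM of 1.33 (quartiles 1.07 and 1.83), and 39 entries exceeded 10 FPKM. Relative to the annotated entry of the gene, the median was 51.1% of its FPKM, and 678 entries were above it. At the count threshold, 30 entries had a second-highest count of exactly 50 and 25 had 49, with median counts over the libraries of 46 and 42.75.

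Entries on the opposite strand lay in introns of ABL1, BCR and MYB. One within an intron of ABL1, the tyrosine kinase of the BCR-ABL1 fusion (chr9:130731028-130748533, minus strand), had 5654 and 8176 counts in the DMSO libraries and 8313 and 7068 in the SF1-8 libraries, or 4.57 to 5.28 FPKM. The other 3 minus-strand entries in the introns of ABL1 had FPKM values between 1.19 and 2.80. In BCR, the fusion partner, the larger of 2 minus-strand entries, at chr22:23199369-23225154, had 3566 and 4553 counts with DMSO and 5377 and 4713 with SF1-8. In MYB, a transcription factor of blood progenitors, the minus-strand entry at chr6:135205219-135212224 had 2221, 2689, 2825 and 2582 counts in the same order of libraries. None of these 3 entries passed the test (adjusted p = 0.970 each, edgeR). The log2 fold changes were -0.06, 0.08 and -0.09, and the groups overlapped in each.

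In MIR17HG, the host gene of the miR-17-92 cluster, the entry began 215 bases past the annotated entry (chr13:91354792-91366120, same strand). It had 5665 and 6464 counts with DMSO and 6326 and 6209 with SF1-8, at 6.68 to 8.65 FPKM, and the annotated entry stood at 18.0 to 20.2 FPKM. An antisense entry in an intron of GMPR, which reduces GMP to IMP, spread more within groups than between them, with 4193 and 10325 counts with DMSO and 12450 and 4545 with SF1-8. The highest count of all belonged to an entry named MIR3648-2 (chr21:8986605-8988375), which had 91899 and 81369 counts with DMSO and 61675 and 23722 with SF1-8. Its groups did not overlap, with SF1-8 lower, as in 18.1% of all entries tested. SF1-8 2 was the lowest, and the entry did not pass the test (adjusted p = 0.970, edgeR). Other entries of high count on chromosome 21 were named CR392039, FP671120 and FP236383, and the annotated entry around the last pair also names ribosomal RNA. RNU6-539P had 88 and 13927 counts with DMSO and 23245 and 12557 with SF1-8, so its DMSO libraries stood further apart than the groups.

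Many genes held several entries. At least 3 entries fell in each of 97 genes, 374 entries in all, and in 81 of these genes every entry lay inside the annotated entry. CR381670, an unprocessed pseudogene on chromosome 21, held 13, CHD9, a chromodomain helicase, and the long noncoding FLJ46284 and LINC02882 held 8 each, and LEPR, the leptin receptor, held 7. All 8 of CHD9 were wholly intronic and 6 had no strand. Their FPKM values lay between 0.898 and 1.41, and their log2 fold changes between -0.79 and 0.18. Of the 97 genes, 29 had all their log2 fold changes below 0, 4 had none below 0 and 64 had both. FLJ46284 was 1 of the 29, with 8 values from -1.29 to -0.26, and 3 of its entries had an unadjusted p under 0.05 (as did 4.33% of all entries tested), none of which passed the adjustment, while its annotated entry stood at 0.06. The summed counts of the FLJ46284 entries were 2573 and 2474 with DMSO and 2298 and 2105 with SF1-8. As DMSO 1 was the shallowest library, this sum was highest there relative to depth. Entries that name the same gene were not taken as independent of each other.

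The comparison of SF1-8 with DMSO called 4 of the 2080 entries. The threshold was 0.05 on the p of edgeR's quasi-likelihood test, after Benjamini-Hochberg adjustment over all 26167 named entries tested, of which 0.042% were called. GTF2H2 rose (0.0191% of all entries tested), and LINC01399, NUDT4B and AC009053 fell (0.0229%). LINC01399 and NUDT4B reached the count minimum only through the DMSO libraries and GTF2H2 only through the SF1-8 libraries, so each of these was chosen through the group where it is high, and their count among the 2080 supports nothing about such entries. Without DMSO 1 none of the 4 passed, without DMSO 2 NUDT4B did not pass either (adjusted p = 0.0548, edgeR), and AC009053 passed in no fit that left out 1 library (adjusted p from 0.0703 to 0.116, edgeR). With limma on log2(FPKM + 1) and log2(FPKM + 0.1) none of the 4 passed (adjusted p from 0.175 to 0.505). An exact permutation of 2 against 2 libraries cannot reach 0.05, so the calls rest on the spread shared across entries.

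**Figure D3:**
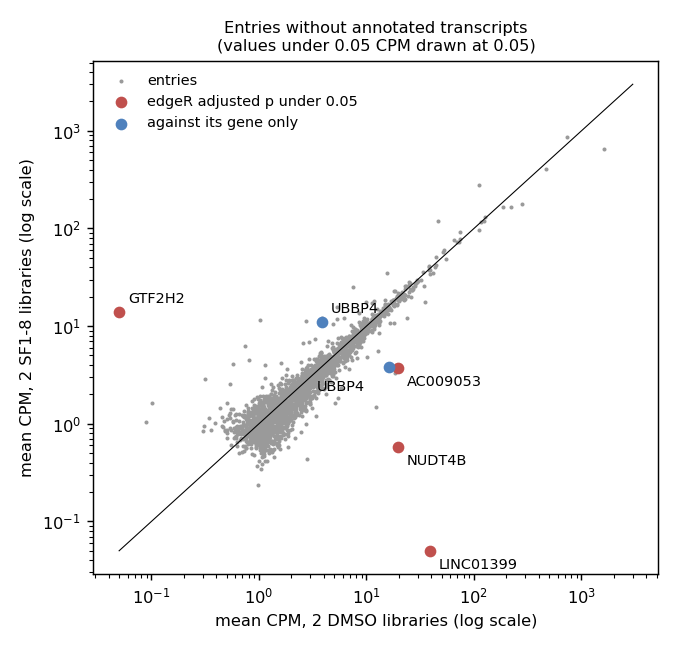
Mean CPM (counts scaled to library size) in the SF1-8 libraries against those in the DMSO libraries for the 2080 entries, both axes on a log scale, with the line of equality. The 4 entries called by edgeR are red, and the 2 entries of UBBP4 called only against their gene are blue. GTF2H2 had no count with DMSO and LINC01399 none with SF1-8.

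In LINC01399, a noncoding gene on chromosome 22, the called entry (chr22:35183713-35191495, plus strand) had 1903 and 2348 counts with DMSO and 0 and 0 with SF1-8. Against a floor of 3 counts per library, it was at least 832-fold lower with SF1-8 (adjusted p = 0.0148, edgeR's quasi-likelihood test), in an entry that met the count minimum through the DMSO libraries alone. The annotated entry around it (chr22:35119824-35231056, minus strand) moved the other way, with 309 and 405 counts with DMSO and 3073 and 2941 with SF1-8 (log2 fold change 2.85, standard error 0.109, adjusted p = 0.0148, edgeR). The 2 groups did not overlap in either entry. The sum of the 2 entries was 46.5 and 43.7 CPM with DMSO and 46.9 and 46.2 CPM with SF1-8, a ratio of 1.03. The sum of both strands moved by less than the gap between the DMSO libraries. The other 2 entries of LINC01399 without annotated transcripts had 41 to 111 counts and did not pass the test (adjusted p = 0.970 each, edgeR).

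On chromosome 16, the entry named AC009053 (chr16:74323319-74429307, minus strand) and the one named NPIPB15, a member of the nuclear pore complex interacting family (chr16:74319666-74429568, plus strand), covered nearly the same stretch. AC009053 had 900 and 1275 counts with DMSO and 233 and 245 with SF1-8 (log2 fold change -2.40, standard error 0.148, adjusted p = 0.0369, edgeR). NPIPB15 had 328 and 514 with DMSO and 1721 and 1536 with SF1-8 (log2 fold change 1.74, standard error 0.149, adjusted p = 0.0837, edgeR). NPIPB15 did not pass this test, but it did with DESeq2 (adjusted p = 1.44e-16) and with edgeR without the filter on low counts (adjusted p = 0.0156). Their sum was 25.8 and 28.4 CPM with DMSO and 29.8 and 28.0 CPM with SF1-8, a ratio of 1.07. The share of the minus-strand entry in this sum was 73.3% and 71.3% with DMSO and 11.9% and 13.8% with SF1-8. The entries' lengths were 5.01% and 8.53% of their extents, and both spanned CLEC18B, a gene of the C-type lectin family.

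NUDT4B belongs to the NUDT4 family, hydrolases of diphosphoinositol polyphosphates. Its called entry (chr1:148743795-148752354, plus strand) had 783 and 1425 counts with DMSO and 45 and 30 with SF1-8 (log2 fold change -5.07, standard error 0.298, adjusted p = 0.0328, edgeR). The annotated NUDT4B entry inside it had 1196 and 669 counts with DMSO and 677 and 634 with SF1-8. Of the 1107 stretches of 100 bases in the GENCODE transcript of NUDT4B, 91.0% also occur in NUDT4 transcripts, so reads of these genes can be assigned to either copy and the value of each is uncertain. Other copies did not pass the test. NUDT4P2, whose entry is also 8560 bases long, had 2135 and 2058 counts with DMSO and 672 and 702 with SF1-8 (log2 fold change -1.86, adjusted p = 0.124, edgeR), and NUDT4 on chromosome 12 had 11888 and 9032 with DMSO and 20516 and 20895 with SF1-8 (log2 fold change 0.71, adjusted p = 0.970, edgeR). The NUDT4 family entries that were tested together had 339 and 223 CPM with DMSO and 348 and 363 CPM with SF1-8. In this sum DMSO 1 lay close to the SF1-8 libraries. It leaves out a minus-strand NUDT4 entry that was not tested, with 455 and 0 counts with DMSO and 0 and 0 with SF1-8.

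For GTF2H2, which encodes a subunit of the transcription and repair factor TFIIH, the called entry lay 732 bases past the annotated entry (chr5:71028614-71031938, minus strand, same strand as the gene). It had 0 and 0 counts with DMSO and 921 and 895 with SF1-8, or 3.31 and 3.33 FPKM with SF1-8. It was at least 254-fold higher with SF1-8 (adjusted p = 0.0190, edgeR's quasi-likelihood test), in an entry that met the count minimum through the SF1-8 libraries alone. The annotated GTF2H2 entry had 3220 and 4564 counts with DMSO and 4747 and 4787 with SF1-8 (log2 fold change 0.08, adjusted p = 0.970, edgeR). An entry without a gene name covered the same stretch on the plus strand, with 555 and 849 counts with DMSO and 920 and 899 with SF1-8. The sum of the 2 entries was 11.7 and 13.5 CPM with DMSO and 28.1 and 28.2 CPM with SF1-8, a ratio of 2.24. The counts of the 2 strands were nearly equal with SF1-8 (921 and 920 in SF1-8 1, 895 and 899 in SF1-8 2). Whether the same reads were counted in both was not tested, so this sum cannot be set against that of LINC01399. The plus-strand entry alone had 11.7 and 13.5 CPM with DMSO and 14.05 and 14.11 CPM with SF1-8. GTF2H2 has near-identical copies on the same chromosome, named GTF2H2B and GTF2H2C, so its value is uncertain where the counting could split reads between copies.

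UBBP4, a ubiquitin B pseudogene, held 2 entries that moved apart from their gene. Each entry was also tested against the change of its gene as a whole, the entry included. This called 7 of 8389 entries tested (0.0834%), and 4 of the 1821 entries described here that could be tested: LINC01399, GTF2H2 and both of UBBP4. At an unadjusted p under 0.05 it was 51, against 2.69% of all tested. The minus-strand entry of UBBP4 (chr17:22104374-22109286) had 192 and 233 counts with DMSO and 726 and 689 with SF1-8, 1.55 above its gene on the log2 scale (adjusted p = 0.0212, edgeR's diffSpliceDGE). The plus-strand one (chr17:22105411-22177508) had 845 and 921 with DMSO and 237 and 253 with SF1-8, and stood at -2.04 against its gene (adjusted p = 0.00193, edgeR's diffSpliceDGE). In the comparison of SF1-8 with DMSO neither entry passed (adjusted p = 0.172 for the minus-strand and 0.0837 for the plus-strand entry, edgeR's quasi-likelihood test). Among 10 alternatives to that fit, the minus-strand entry passed in 1 and the plus-strand entry in 2. The annotated entry of UBBP4 had 3396 and 4597 counts with DMSO and 4779 and 4836 with SF1-8. The sum of the 2 unannotated entries was 21.8 and 18.3 CPM with DMSO and 14.7 and 14.8 CPM with SF1-8, a ratio of 0.735. Without DMSO 1 or without SF1-8 2 the count of such calls was 2.

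LINC01169, a long noncoding gene on chromosome 15, also had counts on both strands. Its minus-strand entry (chr15:66592475-66620881) had 1339 and 4067 counts with DMSO and 8192 and 7358 with SF1-8 (log2 fold change 1.38, standard error 0.382, adjusted p = 0.970, edgeR), and the annotated plus-strand entry had 6158 and 6886 with DMSO and 4754 and 4129 with SF1-8 (log2 fold change -0.80, adjusted p = 0.423, edgeR). Neither passed the test. The minus-strand entry of LINC01169 did with DESeq2 (adjusted p = 0.0149) and without DMSO 2 (log2 fold change 2.10, adjusted p = 0.0492, edgeR), and its log2 fold change was 0.90 without DMSO 1. Their sum was 158 and 174 CPM with DMSO and 198 and 180 CPM with SF1-8.

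The strand that held the counts also differed between libraries of 1 group. In ZNF808, a zinc finger gene, 2 entries of 3046 and 3072 bases covered nearly the same stretch, 1 on each strand. The minus-strand entry (chr19:52558094-52561139) had 0 and 346 counts with DMSO and 0 and 1427 with SF1-8, and the plus-strand entry (chr19:52558088-52561159) had 849 and 976 with DMSO and 1396 and 0 with SF1-8. Both patterns split the SF1-8 libraries, and the sum was 17.8 and 21.0 CPM with DMSO and 21.3 and 22.4 CPM with SF1-8. Across all 2080 entries, 14 had no count in 1 DMSO library and at least 50 in the other, and 14 did so within SF1-8. Only LINC01399 and GTF2H2 were at 0 in a whole group. A 10-fold or larger gap in counts, taken as at least 3, separated the 2 DMSO libraries in 34 entries and the 2 SF1-8 libraries in 24. ASIP, which encodes the agouti signalling protein, is an example of the latter, with 480 and 634 counts with DMSO and 0 and 616 with SF1-8. Such a gap separated every DMSO from every SF1-8 library in 2 entries lower and 2 higher with SF1-8. The lower ones were LINC01399 and NUDT4B, and the higher ones were GTF2H2 and an entry of HSPA1B. Each met the count minimum only through the group where it was high, and the share over all entries was not taken. Their number therefore supports nothing about such entries.

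**Figure D4:**
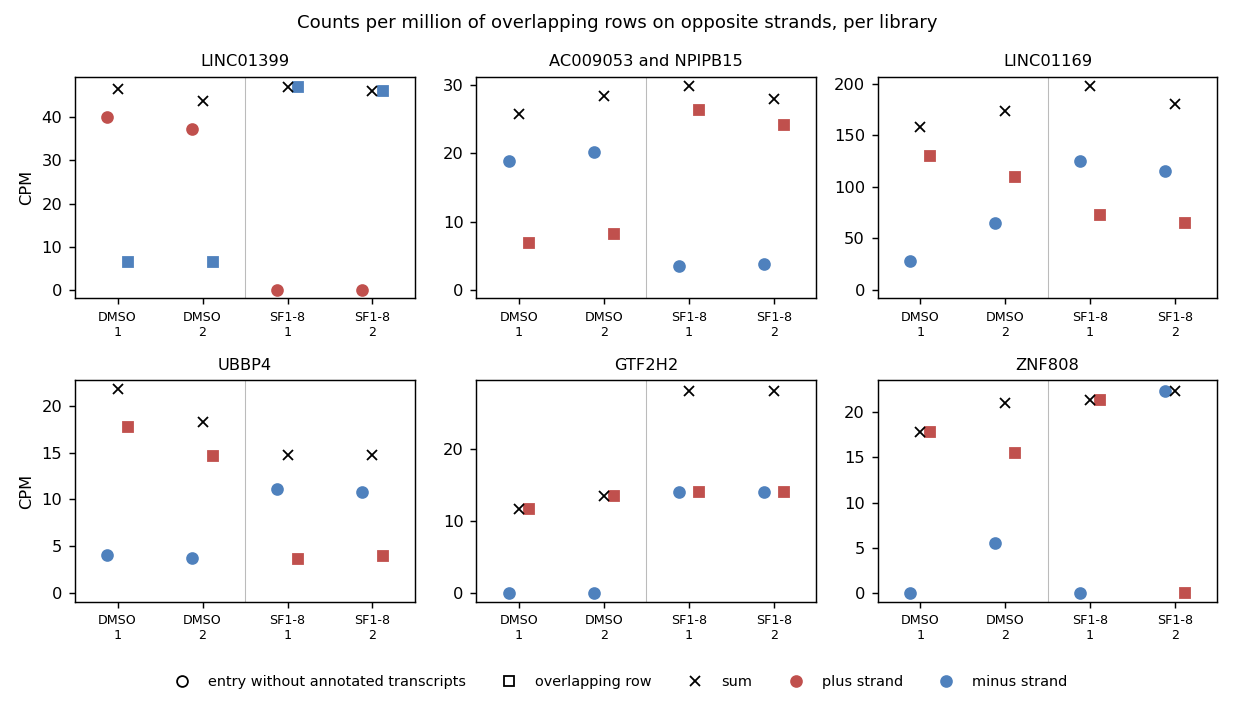
CPM per library of an entry without annotated transcripts (circles), an overlapping entry on the opposite strand (squares) and their sum (crosses), with the plus strand in red and the minus strand in blue. In LINC01399 the sum lay between 43.7 and 46.9 CPM while the strand with most counts changed, and in ZNF808 the strand differed between the 2 SF1-8 libraries.

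Among the 10 largest rises and 10 largest falls at an unadjusted p under 0.05, most did not pass the adjustment. The largest rise that did not pass the adjustment was that of HSPA1B, the stress-inducible HSP70 chaperone, in a minus-strand entry with 5 and 6 counts with DMSO and 85 and 126 with SF1-8 (chr6:31817325-31829796, log2 fold change 4.01, standard error 0.483, adjusted p = 0.227, edgeR). The annotated entry that holds HSPA1B together with HSPA1A on the plus strand had 31456 and 73609 counts with DMSO and 46996 and 68161 with SF1-8. A second minus-strand entry of HSPA1B, with 73 and 34 counts with DMSO and 103 and 100 with SF1-8, overlapped it. Both spanned the HSPA1B promoter printed above, and the first had a length of 2.23% of its extent.

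Among the falls, BEND3P1, a pseudogene, had 154 and 151 counts with DMSO and 23 and 33 with SF1-8 in an entry without strand (chr10:50656819-50657648, log2 fold change -2.69, standard error 0.364, adjusted p = 0.336, edgeR), inside an annotated entry with 385 and 667 counts with DMSO and 729 and 693 with SF1-8. An entry 1421 bases past CDK9, the kinase of the elongation factor P-TEFb, had 0 and 40 counts with DMSO and 144 and 226 with SF1-8 (log2 fold change 3.10, adjusted p = 0.970, edgeR). For CDK9 it was 2.17 without DMSO 1, and without DMSO 2 the lone DMSO library was at 0. An entry without a gene name around it on the minus strand had 274 and 304 counts with DMSO and 177 and 226 with SF1-8. The sum of the 2 in CPM had a ratio of 1.07 between SF1-8 and DMSO. Both had 226 counts in SF1-8 2, and whether the same reads were counted in both was not tested. PNRC2P1, with 39 and 41 counts with DMSO and 77 and 727 with SF1-8, was high in SF1-8 2 alone, and its log2 fold change of 3.10 was 0.68 without SF1-8 2 and 3.96 without SF1-8 1 (adjusted p = 0.0472 in the latter, edgeR). By edgeR with all 4 libraries none of these passed the adjustment, while the first HSPA1B entry (adjusted p = 2.89e-05) and BEND3P1 (adjusted p = 3.58e-05) did with DESeq2. Their groups did not overlap, which held for 18.1% of all entries tested with SF1-8 lower and for 17.3% with SF1-8 higher. BEND3P1, CDK9, PNRC2P1 and the first HSPA1B entry met the count minimum only through the group where they were high.

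Over all 2080 entries the fold changes leaned to lower values with SF1-8. The median log2 fold change was -0.10, against -0.01 over the 26167 entries tested, a value that setting the 2 entries at 0 in a group to their bound cannot move, since both stay on the same side. At an unadjusted p under 0.05, 86 entries were lower (4.13%, against 2.54% of all entries tested) and 37 were higher (1.78%, against 1.78%). In either direction 4.33% of all entries tested passed. With limma this excess of lower entries was absent. On log2(FPKM + 1) 60 were lower, against 948 of all 26167, and on log2(FPKM + 0.1) 73, against 959, both smaller shares than over all entries. The medians in these 2 fits were -0.08, against -0.02 over all, and -0.12, against -0.03. In CPM, 490 entries were lower in both SF1-8 than in both DMSO libraries (23.6%, against 18.1%) and 260 were higher (12.5%, against 17.3%). Among groups by strand and position, the lowest median was in entries without strand inside an annotated entry, with a median of -0.19 over 839 entries, 46 lower and 13 higher at an unadjusted p under 0.05. Over the 183 entries that covered part of an exon the median was 0.02.

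The lean in the median was smaller without DMSO 1. The median of the 2080 entries was -0.13 without DMSO 2 (-0.002 over all entries tested), -0.12 without SF1-8 1 (-0.02) and -0.09 without SF1-8 2 (-0.01). Without SF1-8 1, and without SF1-8 2, the share of lower entries at an unadjusted p under 0.05 was not above that of all entries tested. Without DMSO 2 it was above. Of the 2080 entries, 852 (41.0%) had their highest CPM in DMSO 1, against 29.6% of all entries tested, and 47.7% of those without strand inside an annotated entry did. Without DMSO 1 the median of the 2080 entries was -0.04, against 0.00 over all, with 47 lower (2.26%, against 2.06% of all) and 57 higher (2.74%, against 2.89%), and those without strand inside an annotated entry had a median of -0.06 with 20 lower and 17 higher. DMSO 1 was also the library with the lowest depth and the highest summed fibroblast markers, and the part of either in the lean was not tested. In bulk RNA, fewer cells of a type and less RNA per cell cannot be told apart.

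**Figure D5:**
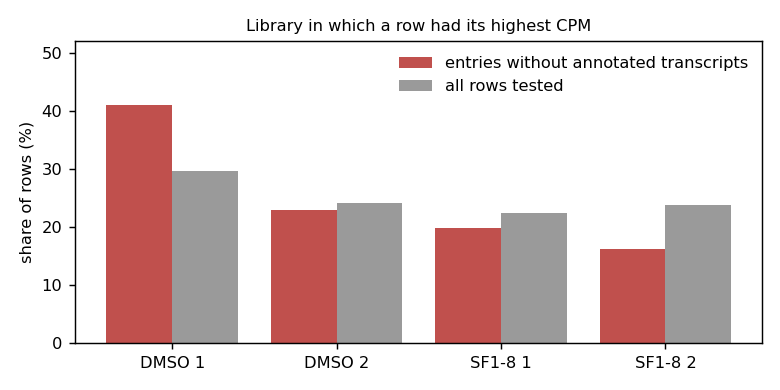
Share of entries (%) whose highest CPM fell in each of the 4 libraries, for the 2080 entries without annotated transcripts (red) and all 26167 entries tested (grey). DMSO 1 held 41.0% of the former and 29.6% of the latter.

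Over 1981 entries whose annotated entry was tested and that were not at 0 in a group, Pearson's r between both log2 fold changes was 0.04 and Spearman's rho was 0.01. These are descriptions across entries that share the same 4 libraries and, in part, the same host. There were 1598 distinct annotated entries, and the median log2 fold change of those tested was 0.02, against -0.10 for the entries without annotated transcripts.

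A miRNA hairpin lay in 8 entries, among them one named PDXDC1 that held MIR6511B2, with 137 and 188 counts with DMSO and 317 and 281 with SF1-8 (adjusted p = 0.970, edgeR). RMND1, needed for mitochondrial translation, held an antisense entry (chr6:151391735-151418101, plus strand) with 648 and 756 counts with DMSO and 352 and 363 with SF1-8 (log2 fold change -1.21, standard error 0.159, adjusted p = 0.304, edgeR). It did not pass the test. Its groups did not overlap, with SF1-8 lower, as in 18.1% of all entries tested.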

How the data were processed

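RNA-seq of K562-U2AF1_S34F cells (2 DMSO and 2 SF1-8 libraries, 30 uM, 48 h) was deposited as 1 table of assembled entries, with a count and an FPKM value per library. The labels' tools are cutadapt, FastQC, Bowtie2, HISAT2 and StringTie with hg38, versions and annotation not given in the sources used here. The counts deposited by the authors are estimated counts per entry, given as whole numbers. The FPKM values deposited by the authors are normalized for length and depth, with 0.0001 where the count is 0, and the strand handling of the counting is not given in the sources used here.

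The entries described were chosen by the rule in the report with earlier results of these data known, as were the lists and tests. Entries naming no gene (2095, 0.372% of counts) were left out. Counts were tested with edgeR 4.0.16 in R 4.3.3 (TMM scaling, filterByExpr, quasi-likelihood test, Benjamini-Hochberg adjustment over 26167 entries, adjusted p under 0.05), and each entry was set against the entries naming the same gene with edgeR's diffSpliceDGE. All 2080 entries passed filterByExpr. The steps were tested on simulated data. Standard errors were taken from the fold change and its F statistic. CPM was computed with TMM scaling. Folds against 0 used a floor of 3 counts per library, which covers counting error only.

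Length was read from count over FPKM, with a constant per library calibrated on entries without strand of 200 or more counts (largest deviation 0.369%). Position came from GENCODE release 29 and promoter windows from RefSeq (GRCh38.p14). Overlapping entries had to cover at least 50% of the extent.

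Genes were named by this rule: entries called in either test or at 0 in a group, the 12 highest by FPKM and by count, the 10 largest rises and falls at an unadjusted p under 0.05, the 5 highest by count inside another entry, and genes holding 3 or more. BCR, MYB, RMND1, ZNF808, ASIP, PDXDC1 and the second HSPA1B entry were chosen after their values were seen. Some items that the rule names are not reported here. Alternatives were DESeq2 1.42.0, no filter, a replicate block, counts divided by 4, limma 3.58.1 on log2(FPKM + 1) and log2(FPKM + 0.1), leaving out each library, and other count and position rules.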

Additional observations from a re-analysis of the deposited data

How the results depend on the processing

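With DESeq2 13 of the 2080 entries passed the adjusted threshold, against 4 by edgeR, where 164 and 11 of all 26167 did. With a replicate block (same-numbered libraries as pairs) it was 0, with 85 lower and 29 higher at an unadjusted p under 0.05. Over all 26167 entries the block gave 0 calls, 565 lower and 406 higher. With limma on log2(FPKM + 1) it was 0, with 60 lower and 42 higher, against 0, 948 and 545 over all 26167. On log2(FPKM + 0.1) it was 0, with 73 lower and 45 higher, against 0, 959 and 538. Under limma the lower share was thus smaller than over all entries. The numbers pair the libraries by name only, since deviations of same-numbered libraries had a correlation of 0.02 over 26167 entries. Leaving out each library gave 0 to 6 calls (0 without DMSO 1), 45 to 154 lower and 20 to 63 higher at an unadjusted p under 0.05. Over all 26167 entries the same fits gave 0 to 20 calls, 538 to 975 lower and 332 to 1029 higher. A lone library was then assumed to vary like the other group. LINC01399 and GTF2H2 passed in 6 of 10 alternatives, NUDT4B in 5 and AC009053 in 3, and the adjusted p of NUDT4B ran from 5.45e-51 to 0.259. Against their gene, 2 entries were called with the replicate block and 2 to 3 when leaving out each library. A minimum count of 20 gave 3545 entries, 7 of them at 0 in a whole group, and 100 gave 1309. Requiring the same strand left 190 entries inside another. The cause of these differences was not tested. Of 210 fold changes of named entries under alternatives, 179 kept direction and side of the threshold, 11 gained and 20 lost the call, and none reversed. The median count over the 2080 entries was 127. With counts divided by 4, 4 entries passed, and 88 were lower and 30 higher at an unadjusted p under 0.05. Over all 18243 entries tested in this setting, 12 passed, and 491 were lower and 328 higher. What depth limits was not settled by this setting.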
